A study of Mus musculus with 10 samples.

Results

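Iron storage, transport and heme breakdown were examined in mouse microglia, the resident macrophages of the brain, through 7 genes of the 24453 in the expression table. The genes were Fth1, Ftl1, Ncoa4, Hmox1, Slc40a1, Slc11a1 and Tfrc, taken by name for their roles in iron handling. Of these, 6 passed the minimum for testing of at least 10 RPM, reads scaled to a common library total, in at least 2 of 10 libraries, as did 4151 genes of the whole table. Tfrc did not pass. The 10 libraries fell into 4 groups, all from brains of untreated C57bl6 mice. The aged group held 3 libraries from mice of 15 months, and the young group held 3 libraries from mice of 10 weeks. The other groups, from mice of 3 months, held 2 libraries with the label Rab7 deltaMG and 2 with the label Rab7 Control. Rab7 is a small GTPase of late endosomes, and the series describes the deltaMG animals as null mutants. The Cre line, the alleles, what the controls carried and the number of animals behind a library are not stated in the sources used here. Cells were separated with magnetic beads, and their total RNA was amplified before libraries were made.

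Cells take up iron bound to transferrin through the transferrin receptor, made by Tfrc, and keep what they do not use inside ferritin. Ferritin is a hollow protein shell of heavy chains, made by Fth1, which oxidise the iron, and light chains, made by Ftl1, which help it to mineralise. Ncoa4 makes the receptor that carries ferritin to the lysosome, where the iron is released again. Hmox1 makes heme oxygenase, which frees iron from heme and is a common stress response gene. Slc40a1 makes ferroportin, the exporter of iron from cells, and Slc11a1 makes a transporter that moves metal ions out of the phagosome and late endosome of macrophages. C57BL/6 mice are known to carry a loss-of-function allele of Slc11a1. Macrophages use this set of genes to recycle iron from engulfed cells, and ferritin-loaded microglia are known from the aged human brain.

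Several of these messages also carry an iron-responsive element, a short hairpin to which the iron regulatory proteins bind when iron is scarce. In a 5′ UTR the bound protein blocks translation, and in the 3′ UTR of Tfrc it protects the message from decay. RNA levels such as those measured here therefore do not show the control of ferritin and ferroportin at translation. The elements were found in protein-coding transcripts of the GENCODE M21 annotation of GRCm38 as CNNNNNCAGTGN on the transcript's strand, where all bases between the bulge and the loop pair with those after it, G with T allowed. They are shown because they set the ferritin, ferroportin and transferrin receptor messages apart from most others, in windows of 30 bases with the bulged C and the loop in capitals. The Fth1 element lay at chr19:9982730-9982759 on the plus strand, the Ftl1 element at chr7:45459780-45459809 on the minus strand and the Slc40a1 element at chr1:45925466-45925495 on the minus strand, each in the 5′ UTR in exon 1 of the transcripts Fth1-201, Ftl1-201 and Slc40a1-201.
Fth1: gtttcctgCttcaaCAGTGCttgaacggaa
Ftl1: gtgtcttgCttcaaCAGTGTttgaacggaa
Slc40a1: tccaacttCagctaCAGTGTtagctaagtt
The Fth1 and Ftl1 windows had the same base at 27 of 30 positions, and each shared 13 of 30 with the Slc40a1 window. Among 20899 genes with a 5′ UTR, 31 held such a match, or 0.148%.

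Tfrc held 4 matches, all in the 3′ UTR in exon 19 of Tfrc-201 on the plus strand, at chr16:32631217-32631246, chr16:32631596-32631625, chr16:32631661-32631690 and chr16:32631708-32631737, shown here in that order.
Tfrc site 1: ataattatCggaagCAGTGCcttccataat
Tfrc site 2: cacattatCgggagCAGTGTcttccataat
Tfrc site 3: gtctatatCggagaCAGTGAtctccatatg
Tfrc site 4: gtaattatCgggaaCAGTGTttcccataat
Of 21682 genes with a 3′ UTR, 129 held at least 1 match, or 0.595%. A match is a description of the letters, and binding was not measured.

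The libraries had 6098267 to 9907464 reads behind their scaling. All 10 microglial markers were detected in every library. Their summed level was 3403 to 3842 RPM in aged and 5201 to 5752 RPM in young libraries, and 4340 to 5574 RPM in those labelled Rab7 deltaMG and 4658 to 5100 RPM in those labelled Rab7 Control. All 15 neutrophil markers were also detected in every library, with sums of 991 to 4596 RPM in aged and 570 to 1480 RPM in young libraries. In the libraries labelled Rab7 deltaMG these sums were 1235 and 1862 RPM, against 473 and 714 RPM in those labelled Rab7 Control. Rab7 itself stood at 72.2 and 79.4 RPM in the libraries labelled Rab7 deltaMG, against 64.2 and 67.5 RPM in those labelled Rab7 Control (log2 fold change 0.20, limma adjusted p = 0.668). The named gene therefore does not check these labels, and every direction given for them rests on the labels alone. Xist was at 0.127 to 0.940 RPM in aged and 1715 to 1771 RPM in young libraries, while 4 Y-linked genes summed to 35.7 to 48.7 RPM in aged and to at most 0.288 RPM in young libraries. Age and sex therefore cannot be told apart in the ageing comparison. The 4 other libraries held RNA of both kinds, since Xist was measured at 924 to 1562 RPM and the Y-linked genes summed to 9.11 to 25.8 RPM.

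Ferritin RNA was by far the most abundant of the 7 in these microglia. Per kilobase of 1 annotated transcript, Fth1 averaged 310.2 RPM per kb in aged and 177 RPM per kb in young libraries. The RNA was amplified and coverage along transcripts is not known, so levels of different genes compare only roughly. Ftl1 followed at 88.9 and 60.4 RPM per kb in the same groups. Fth1 ranked first and Ftl1 next in 10 of 10 libraries, Hmox1 followed them in 8 of 10, and Tfrc was last in 10 of 10. In RPM without division by length, Hmox1 was below Ncoa4 or Slc40a1 in most libraries. In young replicate 1 it had 22.4 RPM, against 43.0 and 42.9 RPM. Tfrc, at 0.937 RPM per kb in aged and 0.535 RPM per kb in young libraries, rested on 10 to 45 reads a library, against 947 to 3008 reads for Fth1.

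**Figure D1:**
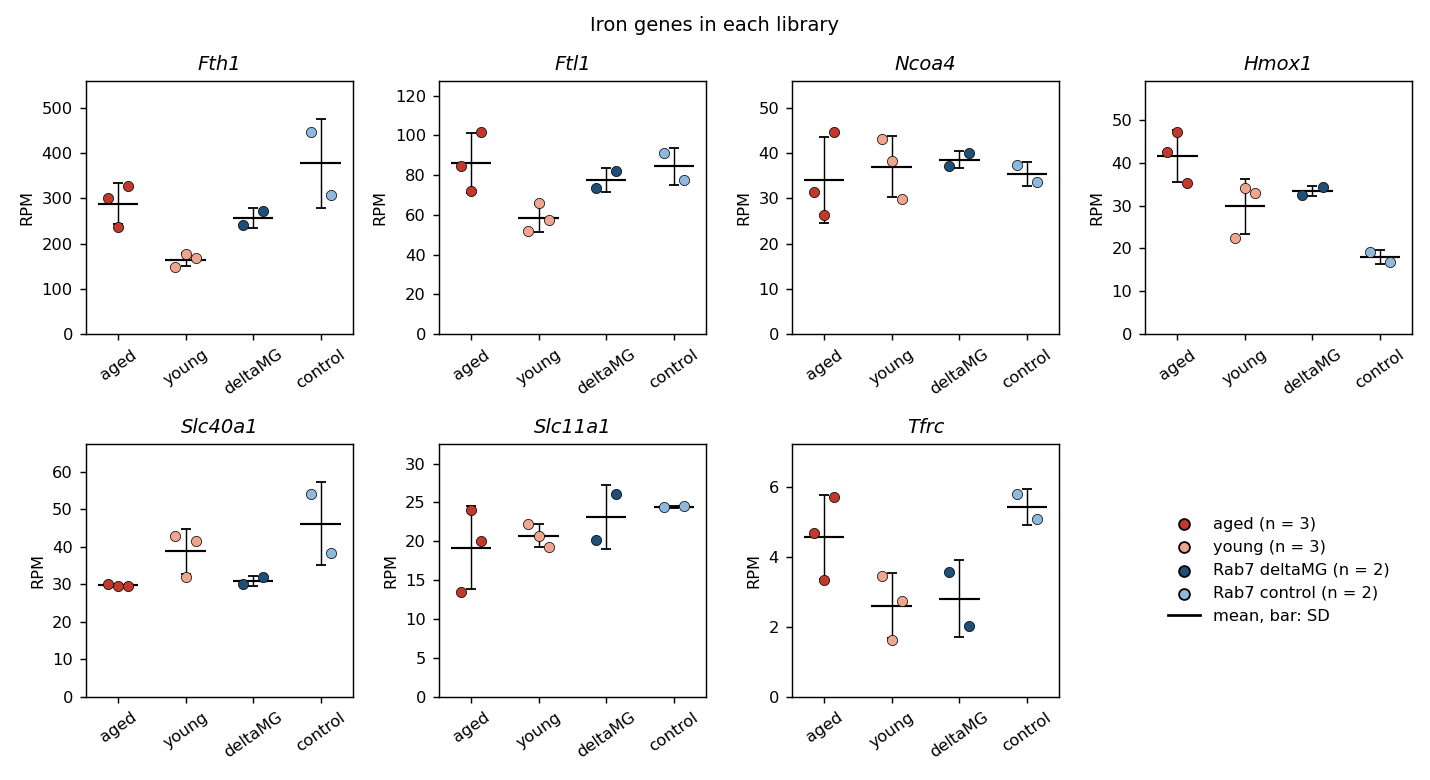
Level of each iron gene (RPM, vertical axis) in every library, with 1 point per library, the group mean as a horizontal line and the SD as a bar. Fth1, Ftl1 and Hmox1 were higher in every aged than in every young library, and Hmox1 alone was higher in both libraries labelled Rab7 deltaMG than in both labelled Rab7 Control.

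In aged microglia the RNAs of both ferritin chains were higher than in young microglia, 1.73-fold for Fth1 and 1.46-fold for Ftl1, and no other tested gene of the 7 passed the test. The comparison asks how microglial transcripts differ with age, which cannot be told apart from sex here. In all, 2 of the 6 tested genes rose and 0 fell, beside 255 of the 4151 tested genes called in either direction, or 6.14%. The median log2 fold change of the 6 was 0.17, beside -0.05 over all tested genes. Ranges that did not overlap were found for 4 of the 7, namely Fth1, Ftl1 and Hmox1 above the young range and Slc40a1 below it, beside 23.9% of all tested genes. In bulk RNA such as this, a different number of cells of a type and a different amount of RNA per cell cannot be told apart.

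Fth1 (chr19:9980598-9985098, plus strand, GRCm38 as for all positions here) had 299.9, 237 and 327 RPM in the aged libraries, against 149, 178 and 167 RPM in the young. Every aged library lay above every young one. The means were 288 ± 45.9 RPM in aged and 165 ± 14.3 RPM in young libraries (SD, n = 3 each). The log2 fold change on the log2(RPM + 1) scale was 0.79 (standard error, SE, 0.15, 95% interval 0.47 to 1.12, limma adjusted p = 0.00810). The call was lost when young replicate 1 was left out (0.73, adjusted p = 0.0506).

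Ftl1 (chr7:45457944-45459884, minus strand) had 84.6, 71.8 and 102 RPM in the aged libraries, against 52.0, 65.9 and 57.6 RPM in the young. The groups did not overlap, but the lowest aged and the highest young library stood close together. With means of 86.1 ± 15.1 RPM in aged and 58.5 ± 7.004 RPM in young libraries (SD, n = 3 each), the log2 fold change was 0.54 (SE 0.15, limma adjusted p = 0.0425). This call sat near the threshold. It was lost in 8 of the 10 fits that left out 1 library, with adjusted p from 0.0501 to 0.175, and was kept only without aged replicate 2 or young replicate 2.

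Among the aged libraries both ferritins were highest in replicate 3 and lowest in replicate 2, and the neutrophil marker sums were 1736, 991 and 4596 RPM in aged replicates 1, 2 and 3. In a fit that also held a score of each library's neutrophil markers, the log2 fold change of Fth1 was 0.62 (limma adjusted p = 0.0148) and that of Ftl1 was 0.36 (adjusted p = 0.181). Monocyte markers, all 8 of 8 detected, summed to 182 to 774 RPM in aged and 78.3 to 199 RPM in young libraries, and border macrophage markers to 31.7 to 83.9 RPM in aged and 26.6 to 29.5 RPM in young libraries. The part of monocytes and border macrophages in the ferritin difference was not tested. The ferritin reads may also be shared with near-identical copies, since the annotation names 7 ferritin pseudogenes, of which 1 is in the table. Gm10252 overlaps the start of Ftl1 on the other strand, and no strand setting is stated in the sources used here, so reads there cannot be told apart.

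The chains did not move by the same factor in every library. The ratio of Fth1 to Ftl1, a ratio of RPM values within a library, was 3.54, 3.31 and 3.21 in the aged libraries, against 2.87, 2.69 and 2.90 in the young. All aged ratios lay above all young ratios. On the log2(RPM + 1) scale the ratio averaged 1.73 ± 0.07 in aged and 1.48 ± 0.06 in young libraries (SD, n = 3 each), a difference of 0.25. A two-sided exact permutation test gave p = 0.1, which is the smallest that 3 against 3 can give.

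**Figure D2:**
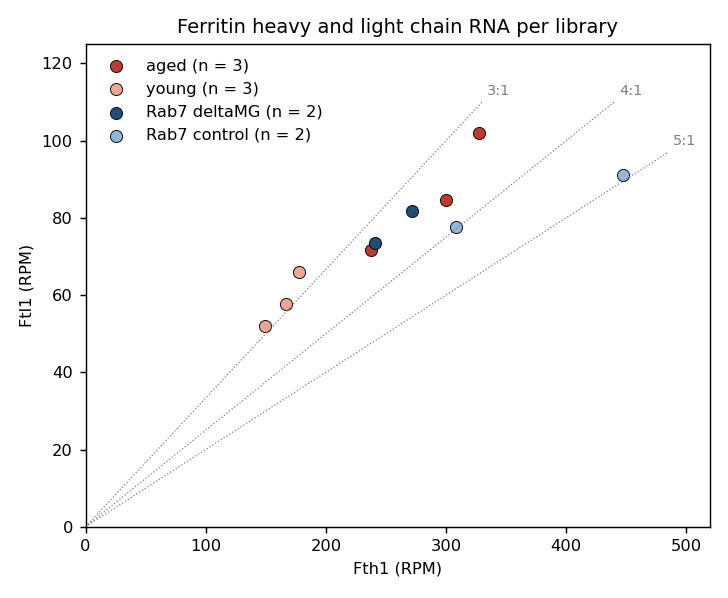
Fth1 (horizontal axis, RPM) against Ftl1 (vertical axis, RPM), with 1 point per library and dotted lines at Fth1 to Ftl1 ratios of 3, 4 and 5 to 1. Aged libraries lie right of the 3 to 1 line and young libraries left of it, and the libraries labelled Rab7 Control have the highest ratios.

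Ncoa4 (chr14:32159865-32179855, plus strand), the ferritin receptor of the lysosomal route, did not pass the test. It had 31.3, 26.3 and 44.7 RPM in the aged libraries, against 43.0, 38.2 and 29.8 RPM in the young. The groups overlapped widely, with both the lowest and the highest value in the aged group. The log2 fold change was -0.13 (95% interval -0.52 to 0.26, limma adjusted p = 0.748).

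Hmox1 (chr8:75093621-75100589, plus strand) had 42.5, 47.2 and 35.2 RPM in the aged libraries, against 22.4, 34.1 and 33.0 RPM in the young. The ranges were separate, although aged replicate 3 was close to 2 of the young libraries. The means were 41.6 ± 6.07 RPM in aged and 29.8 ± 6.47 RPM in young libraries (SD, n = 3 each), with a log2 fold change of 0.48 (95% interval 0.12 to 0.84, limma adjusted p = 0.112). It passed when libraries were weighted by their quality (array weights, 0.55, adjusted p = 0.0460). Markers of erythroid cells, which are rich in heme, summed to 6.76 to 21.9 RPM in aged and 1.01 to 5.83 RPM in young libraries, with 2 of 9 detected in every library, and their part was not tested.

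Slc40a1 (chr1:45908068-45926523, minus strand) gave 30.1, 29.6 and 29.6 RPM in the aged libraries, against 42.9, 31.98 and 41.5 RPM in the young. The aged values were almost equal and lay below all young values, of which replicate 2 was the nearest. The log2 fold change was -0.36 (SE 0.15, limma adjusted p = 0.186), so that this difference did not pass the test. The summed microglial markers were also below the young range in all 3 aged libraries, and their part in it was not tested.

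The remaining transporters showed no difference past the test. Slc11a1 (chr1:74375195-74386062, plus strand) had 13.5, 24.0 and 20.1 RPM in the aged libraries, against 22.2, 20.7 and 19.3 RPM in the young, with a log2 fold change of -0.14 (95% interval -0.54 to 0.26, limma adjusted p = 0.737). Its aged values spanned the whole young range. Tfrc (chr16:32608920-32632794, plus strand), at 4.70, 3.33 and 5.71 RPM in the aged libraries against 3.47, 1.64 and 2.73 RPM in the young, overlapped at the lowest aged and the highest young library. The mean of its log2(RPM + 1) was 0.64 higher in aged libraries (two-sided exact permutation p = 0.2, where the smallest possible is 0.1).

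In the libraries labelled Rab7 deltaMG the gene of heme breakdown rose, and neither ferritin passed the test. Hmox1 was 1.81-fold higher in the libraries labelled Rab7 deltaMG than in those labelled Rab7 Control and was the single called gene among the 6 tested. Of all tested genes, 157, or 3.78%, were called in either direction. The median log2 fold change of the 6 was -0.10, beside -0.02 over all tested genes. Non-overlapping ranges were seen for 4 of the 7 (Hmox1 above, and Fth1, Slc40a1 and Tfrc below), 3 of them among the 6 tested, beside 51.8% of all tested genes, with 2 libraries in each group. The comparison follows the labels, and Rab7 RNA itself was not lower in the libraries labelled Rab7 deltaMG, as given above.

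Hmox1 had 32.5 and 34.3 RPM in the libraries labelled Rab7 deltaMG, against 19.2 and 16.9 RPM in those labelled Rab7 Control. The 2 values of each group were close and the groups were well apart. With means of 33.4 ± 1.27 RPM in libraries labelled Rab7 deltaMG and 18.0 ± 1.59 RPM in those labelled Rab7 Control (SD, n = 2 each), the log2 fold change was 0.85 (SE 0.21, 95% interval 0.41 to 1.30, limma adjusted p = 0.0362). The call was lost without aged replicate 1 (adjusted p = 0.0548), which enters through the shared spread, and without any of the 4 libraries compared (adjusted p from 0.154 to 0.227), while the log2 fold change stayed between 0.77 and 0.94. With the neutrophil score as a covariate it was 1.03 (adjusted p = 0.00609). The neutrophil marker sums did not overlap between these groups (1235 and 1862 against 473 and 714 RPM). That fit therefore cannot fully part the score from the labels, which holds wherever it is given for these groups. Erythroid markers summed to 16.4 and 3.04 RPM in the libraries labelled Rab7 deltaMG and 0.149 and 0.283 RPM in those labelled Rab7 Control, and their part was not tested.

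Fth1 had 241 and 272 RPM in the libraries labelled Rab7 deltaMG, against 447 and 308 RPM in those labelled Rab7 Control. Both deltaMG values were below both control values, and the control libraries differed from each other by more than the gap between the groups. The log2 fold change was -0.54 (SE 0.19, 95% interval -0.94 to -0.13), which did not pass the test (limma adjusted p = 0.133). It passed when the 4 libraries were fitted alone (adjusted p = 0.0156) and with the neutrophil score as a covariate (-0.78, adjusted p = 0.0144). The limit of the neutrophil score given for Hmox1 applies here too. The fit of the 4 libraries alone called 510 of the 4151 tested genes, against 157 in the main fit, and this holds wherever that fit is given. Without control replicate 1 the log2 fold change of Fth1 was -0.27. Monocyte markers summed to 164 and 221 RPM in the libraries labelled Rab7 deltaMG and to 59.4 and 95.1 RPM in those labelled Rab7 Control, and border macrophage markers to 48.3 and 49.8 RPM in the libraries labelled Rab7 deltaMG and to 38.5 and 47.1 RPM in those labelled Rab7 Control. Their part in these differences was not tested.

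Ftl1 had 73.5 and 81.9 RPM in the libraries labelled Rab7 deltaMG, against 91.1 and 77.7 RPM in those labelled Rab7 Control, and the groups overlapped. Its log2 fold change was -0.12 (95% interval -0.50 to 0.26, limma adjusted p = 0.805). The Fth1 to Ftl1 ratio was 3.28 and 3.32 in the libraries labelled Rab7 deltaMG, against 4.91 and 3.97 in those labelled Rab7 Control. The deltaMG ratios were almost equal and lay below both control ratios. On the log2 scale the ratio was 1.71 ± 0.01 in libraries labelled Rab7 deltaMG and 2.13 ± 0.22 in those labelled Rab7 Control (SD, n = 2 each), a difference of -0.42 with a two-sided exact permutation p of 0.33, the smallest that 2 against 2 can give.

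Ferroportin RNA was low in the same libraries but did not pass the test. Slc40a1 had 29.99 and 31.8 RPM in the libraries labelled Rab7 deltaMG, against 53.9 and 38.4 RPM in those labelled Rab7 Control, with a log2 fold change of -0.54 and a standard error of 0.19 (limma adjusted p = 0.127). With the 4 libraries fitted alone, where 510 genes were called against 157 in the main fit, its adjusted p was 0.0280. Without control replicate 1 its log2 fold change was -0.30. Tfrc had 3.58 and 2.03 RPM in the libraries labelled Rab7 deltaMG, against 5.80 and 5.08 RPM in those labelled Rab7 Control. Its groups were separate, at a depth of few reads (difference in mean log2(RPM + 1) -0.79, two-sided exact permutation p = 0.33, the smallest possible).

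Ncoa4 and Slc11a1 did not pass the test in this comparison. Ncoa4 had 37.2 and 39.9 RPM in the libraries labelled Rab7 deltaMG, against 37.3 and 33.6 RPM in those labelled Rab7 Control, with a log2 fold change of 0.12 (95% interval -0.36 to 0.60, limma adjusted p = 0.847). Slc11a1 had 20.2 and 26.0 RPM in the libraries labelled Rab7 deltaMG, against 24.4 and 24.5 RPM in those labelled Rab7 Control, with a log2 fold change of -0.09 (95% interval -0.58 to 0.40, limma adjusted p = 0.896). Both genes overlapped between the groups.

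**Figure D3:**
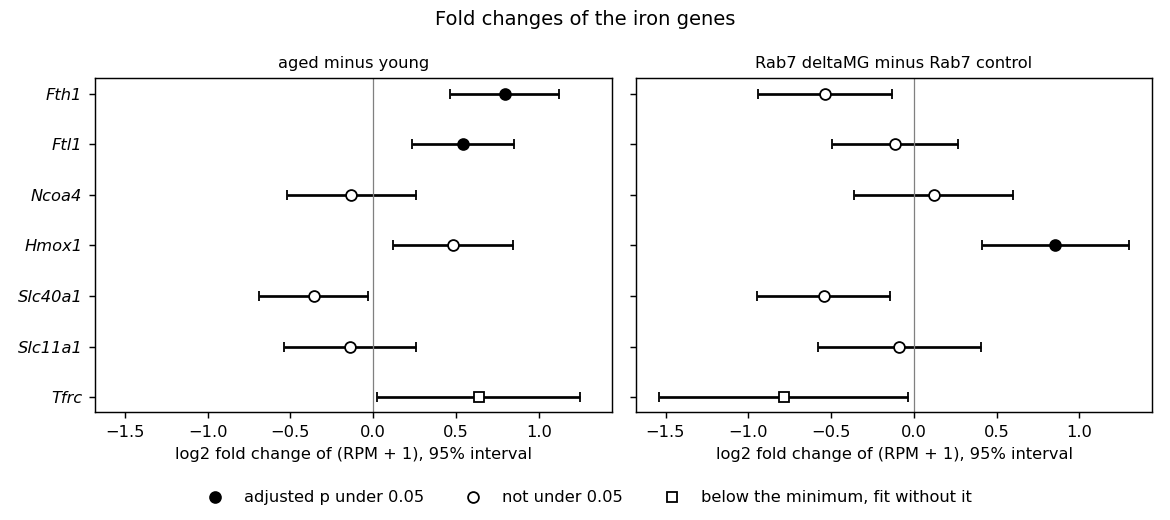
Log2 fold change of each iron gene (horizontal axis, of RPM + 1, with its 95% interval, not adjusted) in the ageing comparison, left, and in the libraries labelled Rab7 deltaMG and Rab7 Control, right. Filled points passed the limma test at an adjusted p under 0.05, open points did not, and squares mark Tfrc, taken from a fit without the minimum of 10 RPM. Fth1 lies at 0.79 on the left and at -0.54 on the right.

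The comparisons share no libraries, so their effects were set against each other directly. The difference between them, the aged minus young effect less the deltaMG minus control effect, passed the test for 1 of the 6 genes, Fth1, beside 4.79% of all tested genes. For Fth1 it was 1.33 with a standard error of 0.24 on the log2 scale (95% interval 0.81 to 1.85, limma adjusted p = 0.00499). Without control replicate 1, the library with the highest Fth1, it was 1.06 (adjusted p = 0.0640). For Ftl1 the difference was 0.66 (adjusted p = 0.125), and it passed under 2 rescalings, with adjusted p of 0.0484 and 0.0389, with the neutrophil score as a covariate (adjusted p = 0.0151) and without aged replicate 2 (adjusted p = 0.0486). For Hmox1 it was -0.37 (95% interval -0.95 to 0.20, adjusted p = 0.520), so its effects in the comparisons were not shown to differ. The values for Slc40a1, Slc11a1 and Ncoa4 were 0.18, -0.05 and -0.25, with limma adjusted p of 0.758, 0.954 and 0.718.

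The levels of the age groups and of the groups labelled for Rab7 were also set side by side. Fth1 averaged 256 ± 21.6 RPM in the libraries labelled Rab7 deltaMG and 378 ± 98.1 RPM in those labelled Rab7 Control (SD, n = 2 each), both above the young mean. Ordered by mean, Fth1 was highest in the libraries labelled Rab7 Control, then aged, then labelled Rab7 deltaMG, then young, and only the last pair of neighbours did not overlap. The order of Ftl1 was aged, labelled Rab7 Control, labelled Rab7 deltaMG and young, again with only the last pair apart. For Hmox1 it was aged, labelled Rab7 deltaMG, young and labelled Rab7 Control, with the middle pair overlapping and the other neighbours apart. For Slc40a1 it was labelled Rab7 Control, young, labelled Rab7 deltaMG and aged, with only the middle pair apart. All neighbours overlapped for Slc11a1, Tfrc and Ncoa4. Levels between the experiments were not tested, and age and sex-linked RNA differ between them.

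The wider iron pathway was read from 77 other genes grouped by role, of which 75 were in the table and 24 passed the minimum for testing. In aged against young libraries 1 of the 24 rose and 1 fell, with a median log2 fold change of -0.04. In the libraries labelled Rab7 deltaMG against those labelled Rab7 Control 0 rose and 2 fell, with a median of -0.21. The medians over all tested genes were -0.05 and -0.02, and the shares of all genes called were those given above.

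Both genes called in the libraries labelled Rab7 deltaMG belonged to iron uptake. Of 6 tested uptake genes, 2 were called lower and 0 higher, beside 3.78% of all tested genes called in either direction. The median log2 fold change was -0.66, but 2 of the 6, Lcn2 and Ltf, had positive values. All 6 had an unadjusted limma p under 0.05, in either direction, beside 18.8% of all tested genes. Slc39a14, 1 of the 6, reached 10 RPM only in the libraries labelled Rab7 Control (11.4 and 11.1 RPM). The filter therefore favoured its fall, and it lends no support to this count or median. Trf, the gene of the iron carrier transferrin, had 47.2 and 67.6 RPM in the libraries labelled Rab7 deltaMG, against 109.7 and 85.03 RPM in those labelled Rab7 Control (log2 fold change -0.76, SE 0.18, limma adjusted p = 0.0277). Lrp1, a large endocytic receptor that takes up hemopexin-bound heme among many other ligands, had 148 and 177 RPM in the libraries labelled Rab7 deltaMG, against 270.1 and 229 RPM in those labelled Rab7 Control (-0.62, SE 0.16, limma adjusted p = 0.0489). Neither gene overlapped between the groups. The Trf call was lost without deltaMG replicate 1 (-0.51, adjusted p = 0.294) or control replicate 1 (-0.58, adjusted p = 0.350). That of Lrp1 was lost in 8 of the 10 fits that left out 1 library, with adjusted p from 0.0556 to 0.409, and was kept only without aged replicate 2 or aged replicate 3. It was also lost with the neutrophil score (-0.50, adjusted p = 0.129). Astrocyte markers, of which 4 of 7 were detected in every library, summed to 34.0 and 41.1 RPM in the libraries labelled Rab7 deltaMG and to 55.9 and 49.4 RPM in those labelled Rab7 Control. Oligodendrocyte markers, also 4 of 7, summed to 22.3 and 19.4 RPM in the libraries labelled Rab7 deltaMG and to 22.9 and 19.0 RPM in those labelled Rab7 Control. The part of either cell type in the fall of Trf and Lrp1 was not tested.

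The metal transporters Slc11a2 and Slc39a14 had log2 fold changes of -0.71 and -0.76 in the libraries labelled Rab7 deltaMG against those labelled Rab7 Control, with limma adjusted p of 0.113 and 0.145. Slc39a14 passed the minimum only through the libraries labelled Rab7 Control, which favours this direction. Lcn2 and Ltf, genes of iron-binding proteins of neutrophil granules, had values of 1.63 and 1.59, with adjusted p of 0.169 and 0.140. Both stand in the neutrophil marker list as well, whose sums were higher in the same libraries, and their log2 fold changes in aged against young libraries were 1.25 and 1.01 (adjusted p 0.168 and 0.224). In that comparison Trf stayed level, at 50.8, 52.9 and 51.4 RPM in the aged libraries against 52.3, 51.0 and 53.4 RPM in the young, and none of the 6 uptake genes passed the test, with 3 of them at an unadjusted limma p under 0.05, beside 21.5% of all tested genes.

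Among the genes of iron sensing and delivery, 1 of 5 tested was called, higher in aged than in young libraries. Of all tested genes, 6.14% were called in either direction. Age and sex cannot be told apart in this comparison. Fbxl5, which makes the iron-sensing part of a ubiquitin ligase that degrades iron regulatory protein 2, had 21.9, 22.6 and 34.8 RPM in the aged libraries, against 14.03, 14.9 and 16.6 RPM in the young. All aged values lay above all young values, and aged replicate 3 stood highest. The log2 fold change was 0.74 (SE 0.20, 1.66-fold, limma adjusted p = 0.0424). The call was lost in 7 of the 10 fits that left out 1 library (adjusted p from 0.0505 to 0.150), kept only without aged replicate 2, deltaMG replicate 1 or deltaMG replicate 2, and lost with the neutrophil score (0.54, adjusted p = 0.146). In the libraries labelled Rab7 deltaMG Fbxl5 had 20.2 and 13.6 RPM, against 12.2 and 11.3 RPM in those labelled Rab7 Control (0.47, adjusted p = 0.320). Herc2, which makes another ubiquitin ligase that acts on Ncoa4 protein, had log2 fold changes of -0.22 in aged against young and -0.51 in libraries labelled Rab7 deltaMG against Rab7 Control, with limma adjusted p of 0.445 and 0.139, and with the 4 labelled Rab7 libraries fitted alone its adjusted p was 0.0273.

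Slc25a37 makes mitoferrin 1, a carrier of iron into mitochondria. It was the 1 of the 24 whose effects differed between the comparisons by the test of the difference, beside 199 of all 4151 tested genes, or 4.79%. It had 48.1, 42.9 and 50.5 RPM in the aged libraries, against 74.5, 67.7 and 57.3 RPM in the young. It had 63.8 and 59.7 RPM in the libraries labelled Rab7 deltaMG, against 43.2 and 46.0 RPM in those labelled Rab7 Control. The groups did not overlap in either comparison. Aged libraries lay below young, where age and sex cannot be told apart, and deltaMG libraries above control. Its log2 fold change was -0.48 in aged against young (SE 0.13, limma adjusted p = 0.0427) and 0.46 in the libraries labelled Rab7 deltaMG against Rab7 Control (adjusted p = 0.126). The difference between these effects was -0.94 (adjusted p = 0.0152). The fall with age was lost in 9 of the 10 fits that left out 1 library (adjusted p from 0.0513 to 0.180), all but the fit without young replicate 3. The difference was lost without deltaMG replicate 1, control replicate 1 or control replicate 2 (adjusted p from 0.0590 to 0.114).

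No gene of iron export, heme handling or oxidative stress passed the limma test in either comparison, out of 2, 3 and 5 tested. At an unadjusted limma p under 0.05 there were 1, 1 and 1 of them in aged against young libraries, beside 21.5% of all tested genes, and 0, 0 and 3 in the libraries labelled Rab7 deltaMG against Rab7 Control, beside 18.8%. Hfe, a regulator of the iron hormone hepcidin, had log2 fold changes of -0.57 in aged against young and -0.24 in libraries labelled Rab7 deltaMG against Rab7 Control, and Cp, which makes the ferroxidase ceruloplasmin that partners ferroportin, had 0.03 and 0.26. Hp, which makes the hemoglobin-binding haptoglobin, had 13.6, 9.39 and 34.7 RPM in the aged libraries, against 5.83, 11.5 and 1.73 RPM in the young (1.51, adjusted p = 0.0854), with the highest value in the aged library with the highest neutrophil sum. Without aged replicate 2 or young replicate 2 this passed (1.89 and 2.02, adjusted p 0.0265 and 0.0341). Hp had 14.1 and 7.52 RPM in the libraries labelled Rab7 deltaMG, against 5.05 and 3.53 RPM in those labelled Rab7 Control (1.12, limma adjusted p = 0.343). With these 4 libraries fitted alone its adjusted p was 0.0117, and with the neutrophil score the value was -0.35 (adjusted p = 0.656). Fech, the last enzyme of heme synthesis, had -0.35 in both comparisons. Gclc, which catalyses the first step of glutathione synthesis, had -0.32 in aged against young and -0.54 in libraries labelled Rab7 deltaMG against Rab7 Control, and Txnip, an inhibitor of thioredoxin, had -0.27 and 0.46 in the same comparisons (limma adjusted p from 0.108 to 0.258). With the 4 labelled Rab7 libraries fitted alone the adjusted p of Gclc was 0.0492, in a fit that called 510 genes against 157 in the main fit.

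**Figure D4:**
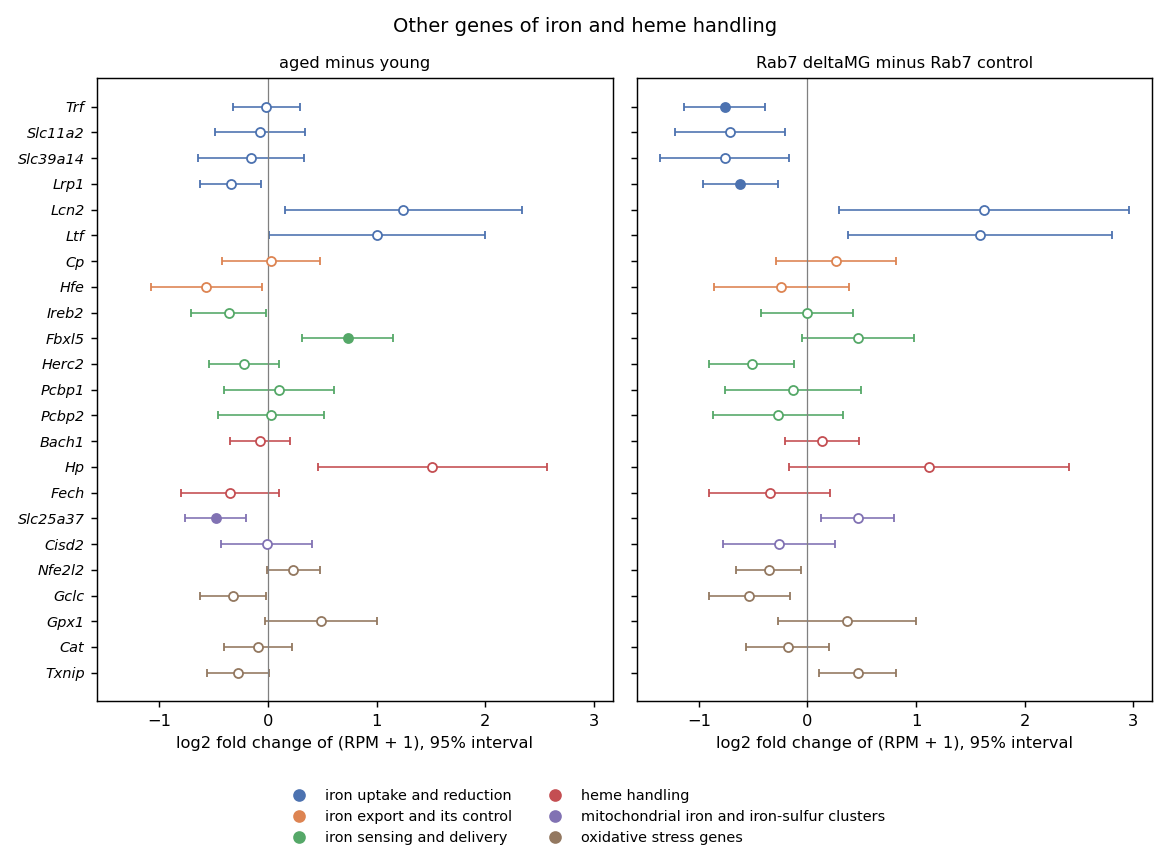
Log2 fold change of 23 of the 24 tested genes of the wider iron pathway (horizontal axis, of RPM + 1, with its 95% interval, not adjusted), coloured by role, in the ageing comparison, left, and in the libraries labelled Rab7 deltaMG and Rab7 Control, right. Filled points passed the limma test at an adjusted p under 0.05. Fbxl5 at 0.74 and Slc25a37 at -0.48 are filled on the left, and Trf at -0.76 and Lrp1 at -0.62 on the right.

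The tested genes whose pattern over the 10 libraries was most like each iron gene were found by the root mean square difference of log2(RPM + 1) values centred on each gene's mean, where a smaller value means more alike. For Fth1 they were Rplp2-ps1 (0.16), B2m (0.18) and H2-D1 (0.18), with the last 2 encoding parts of MHC class I. For Ftl1 they included H2-K1 (0.11), another MHC class I gene, and Rplp2-ps1 (0.11). For Hmox1 they were Hspa1a (0.17), Hspa1b (0.20) and Hsp90aa1 (0.21), all heat shock genes. The median distance of all tested genes was 0.48 from Fth1, 0.34 from Ftl1 and 0.56 from Hmox1. Btf3l4, Wls and Fam134b were nearest to Slc40a1 (0.07 to 0.12), Mlec, Tbc1d9b and Numa1 to Slc11a1 (0.04 to 0.10), and Supt6, Ube2z and Zfp516 to Ncoa4 (0.07 to 0.10). These are descriptions over libraries that share depth, groups and cell makeup, and no test was made of them.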

How the data were processed

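RNA from bead-isolated microglia was amplified and sequenced, and the submitters' processing notes name FastQC and the builds GRCm38 and mm10. The aligner, counter and normalisation are not stated in the sources used here. The deposited values were taken to be RPM, because most low values in each library were whole multiples of 1 step above a constant of 0.0001 present in every cell. A whole read was matched within 0.05 by 94.2% to 94.6% of the values of at most 500 reads in a library. Since some values did not match, count models were left out. Read numbers given for genes are values divided by the step and rounded to whole reads. The listed genes summed to 18.7% to 23.5% of the full scale. The planned minimum of 10 was applied to RPM.

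The log2(RPM + 1) values of all 4 groups entered 1 limma fit (version 3.58.1, R 4.3.3) with a common spread, 6 residual degrees of freedom and a prior variance that follows the mean. Benjamini-Hochberg adjusted p under 0.05 over 4151 genes defined a call. Single values were tested by exact permutation in scipy 1.17.1. The labels do not say that libraries came from separate animals, so p-values measure the spread between libraries. The code was tested on simulated data. The members and lists were chosen with earlier results of these data known. Other pathway genes were named if called, or if among the 2 smallest p of their role, and some genes that met a naming rule are not reported here. Alternatives covered pseudocount, filter, scaling, fit, block, weights, a neutrophil score of 13 genes and leaving out each library.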

Additional observations from a re-analysis of the deposited data

Results flagged for a closer look

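Fth1 and Slc25a37 were flagged because their effects differed between the comparisons by a test of the difference itself. For Fth1 the aged minus young effect exceeded the effect of the libraries labelled Rab7 deltaMG against those labelled Rab7 Control by 1.33 on the log2 scale (limma adjusted p = 0.00499). For Slc25a37 the same difference was -0.94 (limma adjusted p = 0.0152). The Fth1 difference lay between 1.06 and 1.60 in the 10 fits that left out 1 library, and that of Slc25a37 between -1.04 and -0.86. The call was lost in 1 of these fits for Fth1 and in 3 for Slc25a37. In both differences the age effect cannot be told apart from sex, and the other effect rests on the labels alone.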

How the results depend on the processing

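Of all values recomputed under the alternatives, 946 kept their direction and their side of the threshold, or for counts stayed within 1.5 times, 90 moved, 73 were no longer past the threshold, 13 newly passed it and 21 changed sign. Fth1 stayed called in aged against young libraries in 20 of 22 alternatives, Ftl1 in 9 of 22, and Hmox1 in libraries labelled Rab7 deltaMG in 12 of 21. No scaling moved the median of all genes by over 0.1.

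For aged against young, genes called numbered 132 with a minimum of 50 RPM, 121 with the 6 libraries alone and 66 with the replicate block. Iron genes called among the 7 were 1 with no filter, with the 6 libraries alone, with a constant prior and with the neutrophil score, and 0 with the block. Called pathway genes were 1 with the minimum of 50 RPM and with the neutrophil score, and 0 with the 6 libraries alone, the block or a constant prior. For libraries labelled Rab7 deltaMG against Rab7 Control, genes called numbered 90 with a minimum of 50 RPM, which Hmox1 does not reach, 510 with the 4 libraries alone, 69 with the block and 357 with array weights. Iron genes called were 0 with no filter, the minimum of 50 RPM, quantile normalization, the block or a constant prior, 3 with the 4 libraries alone and 2 with the neutrophil score. Called pathway genes were 1 with a pseudocount of 5, quantile normalization or the neutrophil score, 0 with no filter, the block or a constant prior, 8 with the 4 libraries alone and 4 with array weights. For the difference, genes called numbered 116 with the minimum of 50 RPM, 102 with the block, 344 with array weights and 468 with the neutrophil score, and iron genes called were 2 under median-of-ratios rescaling, equal totals and the neutrophil score. The cause of these shifts was not tested, apart from the fewer genes or libraries that some settings use.

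Leaving out 1 library gave 92 to 419 genes called with age, 22 to 307 for the labelled Rab7 groups and 61 to 261 for the difference. Iron genes called ranged from 0 to 2, from 0 to 1 and from 0 to 2 in the same order, and called pathway genes from 0 to 4 in both comparisons.

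The values that changed sign had not passed the test. Trf with age was 0.032 with median-of-ratios rescaling, 0.013 with equal totals, 0.024 with quantile normalization and 0.0030 with the neutrophil score. With that score Rab7 was -0.059 with age and -0.18 in the labelled Rab7 groups, where Ncoa4 was -0.32 and Hp was -0.35, against 1.12 without the score. Leaving out 1 library, the log2 fold change with age ranged from -0.31 to 0.082 for Slc11a1, -0.34 to 0.032 for Ncoa4, -0.018 to 0.12 for Cp, -0.017 to 0.36 for Rab7 and -0.032 to 0.00082 for Trf. In the labelled Rab7 groups it ranged from -0.26 to 0.087 for Slc11a1, -0.64 to 0.16 for Hfe and -0.062 to 0.35 for Cp. The difference ranged from -0.23 to 0.17 for Slc11a1 and from -0.056 to 0.42 for Slc40a1.

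Same-numbered aged and young libraries deviated from their group means with correlations of -0.14, -0.24 and -0.39, which gave no sign of pairing. The same-numbered labelled Rab7 pairs had 0.12 and the others -0.12. With 2 libraries in each group these values mirror each other, so they cannot decide whether those libraries were paired. No aged library correlated best with its own number. With the replicate block the adjusted p was 0.0571 for Fth1 and 0.138 for Ftl1 with age, and 0.104 for Hmox1 in the labelled Rab7 groups.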
